A study of Homo sapiens with 8 samples.

Results

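The enzymes that write and erase marks on histones and DNA were followed across 4 groups of breast epithelial cells. They were 49 genes in 8 classes, each taken by gene symbol from a list that was drawn up with earlier results of these data known. All 49 were measured, by 143 of the 54613 probe sets tested, out of 19775 genes that had a probe set naming them alone. Each gene is given by its brightest probe set, the one with the highest mean over the 8 arrays, and 36 of the 49 had more than 1 probe set to compare with it.

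RNA came from 4 groups of cells with 2 Affymetrix U133 Plus 2.0 arrays each. The groups other than the parental line shared 1 origin: trMCF clone 11 cells, the same clone kept for 26 days in 1 μM all-trans retinoic acid (ATRA), and the same clone kept for 26 days in 10 μM ATRA. The clone was expanded from a single ring-cloned colony of MCF-10F cells that high-dose estradiol had transformed, and it stands for 1 clone. The last group was the parental line MCF-10F, an immortalized breast epithelial line that resembles normal cells and lacks estrogen receptor, progesterone receptor and HER2. Cells given 0.1% DMSO served as the vehicle control of the treatment, but whether the trMCF clone 11 arrays hold such cells is not stated. Nor is it stated that replicate arrays are of separate cultures, so p-values measure the spread between arrays, which may be technical. For trMCF clone 11 replicate 1 the disease state label reads normal, which its title contradicts, and the title was followed.

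Histone lysine methyltransferases and demethylases set and remove methyl groups whose effect depends on the residue, with H3K4 and H3K36 methylation typical of active genes and H3K9 and H3K27 methylation typical of silent ones. Acetyltransferases and deacetylases adjust the charge of histone tails, arginine methyltransferases add a further layer, and O-GlcNAc transferase and O-GlcNAcase attach and remove a sugar on histones and many other nuclear proteins. Ligand-bound retinoic acid receptors exchange deacetylase-containing corepressors for acetyltransferase coactivators at their target genes.

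The values are linear signal intensities taken as log2, and each change is a difference between log2 group means. Array medians were 47.4 to 48.9, and 21.5 to 23.7% of the signals on an array were under 16. All 49 enzymes had a mean log2 signal of 6 or more, between 6.35 and 12.05. The arrays of trMCF clone 11 lay far apart, with 7.71% of probe sets over 2-fold apart, against 0.126% at 1 μM, 0.211% at 10 μM and 3.48% in MCF-10F. Of the enzymes, 7 were over 2-fold apart between the trMCF clone 11 arrays, 0 at either dose and 1 in MCF-10F. Of 9 breast epithelial markers 7 had a probe set of their own, and none had a group mean under 16. Of these 1, KRT14, fell at 10 μM against trMCF clone 11, by 6.66. At 1 μM it had -4.61 and did not pass the adjusted p. The summed signal of 7 fibroblast markers was 510 to 715 in trMCF clone 11, 340 to 346 at 1 μM, 360 to 370 at 10 μM and 1069 to 1815 in MCF-10F, and 2, 2, 0 and 1 of them had a mean under 16 in these groups. That of 3 measured immune markers was 175 to 248 in trMCF clone 11, 504 to 599 at 1 μM, 661 to 738 at 10 μM and 119 to 469 in MCF-10F. That of 4 endothelial markers was 218 to 349 in trMCF clone 11, 672 to 852 at 1 μM, 920 to 1276 at 10 μM and 185 to 1157 in MCF-10F, and that of 3 adipocyte markers was between 81.5 and 138 on all arrays. Of the immune and of the adipocyte markers 1 had a mean under 16 in each group, and of the endothelial ones 1 in trMCF clone 11 and 0 in the other groups. The part of other cells in the results was not tested.

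Transformed trMCF clone 11 cells differed from MCF-10F in a few enzymes of several classes, in both directions. PHF21A, a subunit of the LSD1 demethylase complex, and EZH1, a catalytic subunit of polycomb repressive complex 2, rose by 1.68 and 1.34 on the log2 scale. PRMT6, an arginine methyltransferase, and KDM2B, an H3K36 demethylase, fell by 4.11 and 0.94. These 4 of 49 enzymes passed an adjusted p of 0.05 (limma, Benjamini-Hochberg over all probe sets), against 4.53% of all genes (1.88% that rose and 2.64% that fell) and 6.69% of the 11162 genes with a mean log2 signal of 6 or more. At the criteria of the study's methods, a fold of 2 with an unadjusted p of 0.05, 7 enzymes passed, against 9.2% of all genes. By the unadjusted p alone 25 of 49 passed, 51%, against 22.9% of all genes and 34% of those at 6 or more.

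Those calls rested on single libraries. Without trMCF clone 11 replicate 1 the differences were 1.39 in PHF21A, 1.07 in EZH1, -2.91 in PRMT6 and -0.76 in KDM2B. Without replicate 2 they were 1.97, 1.60, -5.32 and -1.12. Here and below, leaving out 1 trMCF clone 11 array leaves 1 array of that group. The gap between its 2 arrays then no longer enters the spread. The count past the threshold depended on the array left out, and no share of all genes in such fits is given here. It was 0 with either 1 of the 1 μM ATRA arrays left out, which entered the shared estimate of spread, and 0 without MCF-10F replicate 1. Without MCF-10F replicate 2 it was 2, KDM5B and PRMT5.

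After ATRA, enzymes changed in both directions relative to trMCF clone 11. At 1 μM, 1 of 49 passed the adjusted p, PHF21A, which fell by 1.78, against 1.9% of all genes (0.971% that rose and 0.925% that fell). At 10 μM, 11 of 49 passed, against 7.83% of all genes (3.94% that rose and 3.89% that fell) and 12.6% of those with a mean log2 signal of 6 or more. KDM2B, SETD7, SUV39H2, PRMT6, HDAC9 and DNMT1 rose, and KDM4B, KDM5B, PHF21A, EZH1 and DNMT3A fell. A fold of 2 with an unadjusted p gave 10 enzymes at each dose, against 7.89% of all genes at 1 μM and 8.33% at 10 μM. By the unadjusted p alone 21 passed at 1 μM, against 21.6% of all genes and 32.1% of those with a mean log2 signal of 6 or more. At 10 μM 24 passed, against 24% of all genes and 37.2% of those at 6 or more. All comparisons with trMCF clone 11 share its arrays, so opposite signs in MCF-10F and after ATRA are not independent of each other.

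The difference in counts between doses came with a difference in the fit. The 10 μM comparison used all 8 arrays, and the same fit gave 11 enzymes at 1 μM too. At 10 μM the count depended on which trMCF clone 11 array was left out. It was 0 with any 1 of the 4 arrays of ATRA-treated cells left out and 12 with either 1 of the MCF-10F arrays left out. At 1 μM the count depended on the array left out too. No share of all genes is given here for the refits of this paragraph.

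**Figure D1:**
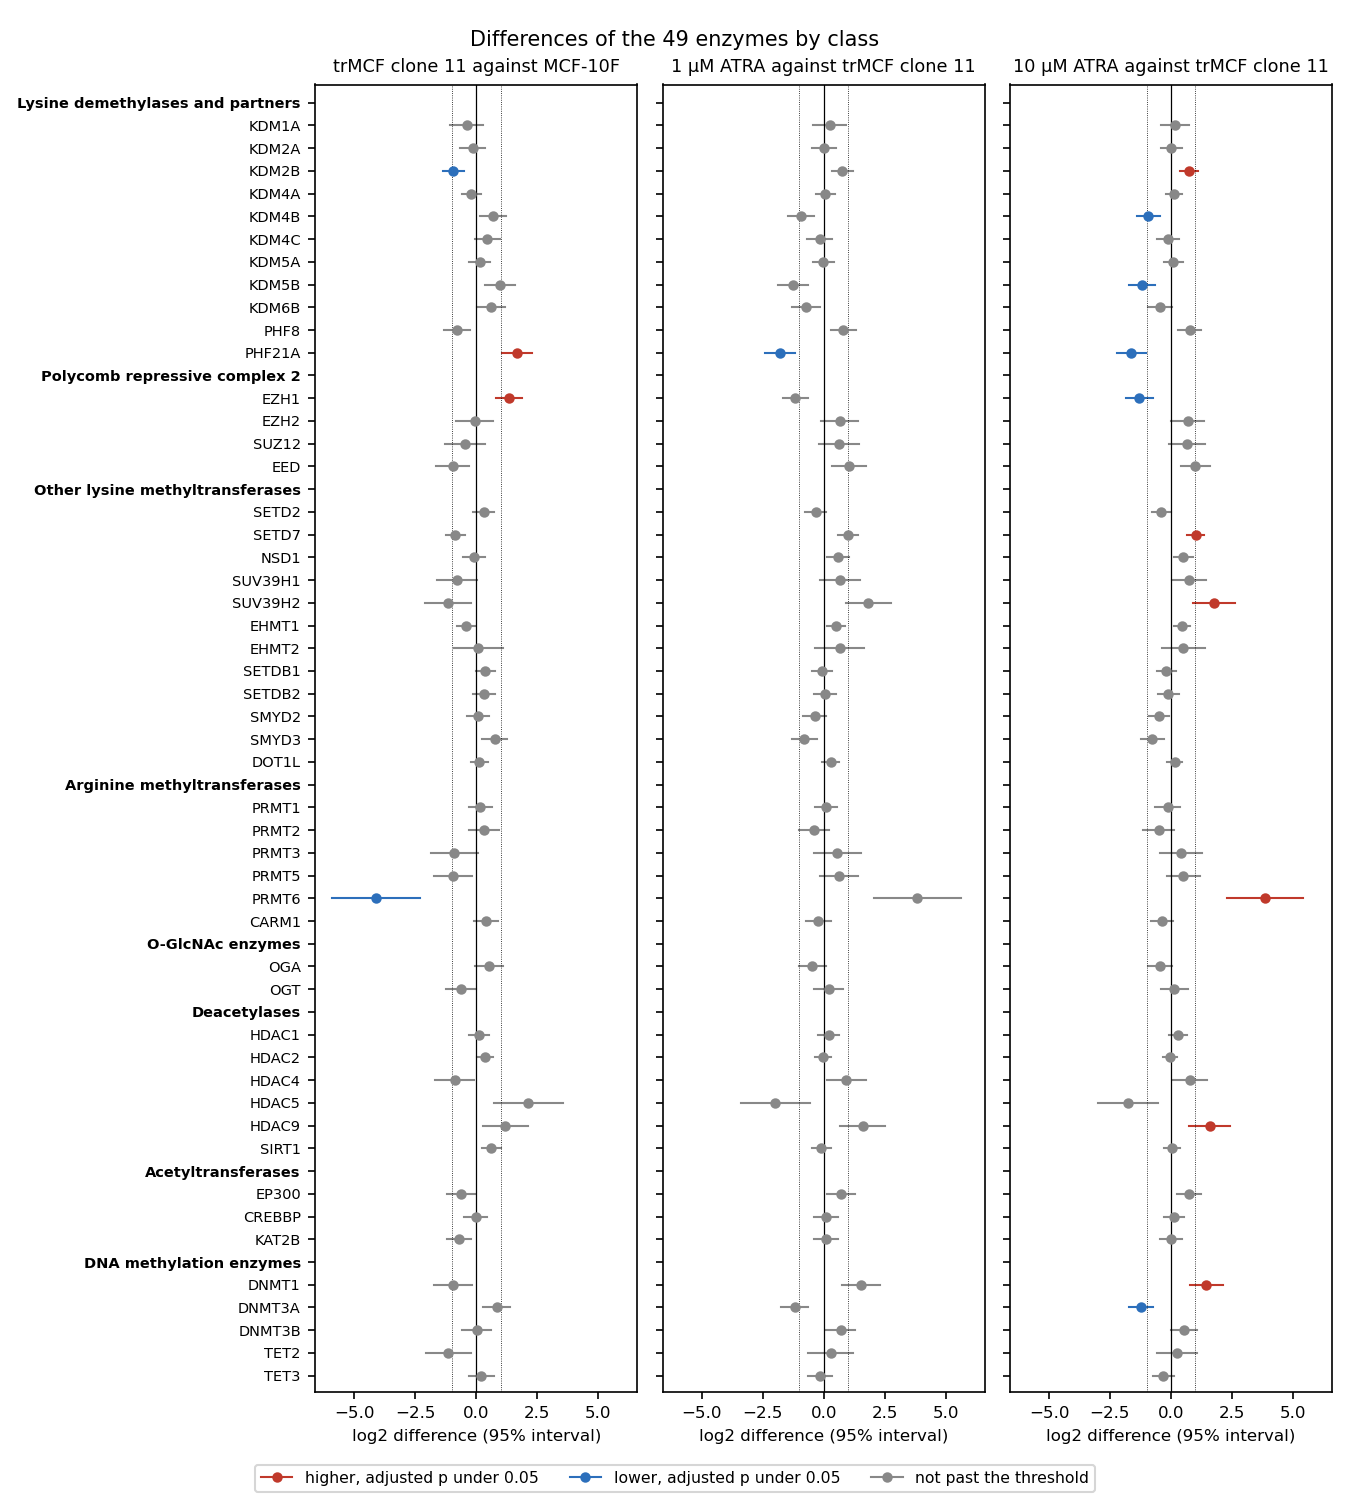
Log2 difference with its 95% interval (horizontal axis) for each of the 49 enzymes, grouped by class, in 3 comparisons; red points passed an adjusted p of 0.05 upwards, blue points downwards and grey points did not pass. The 4, 1 and 11 enzymes past the threshold lie in several classes, and PRMT6 has the widest interval, -5.90 to -2.32 in trMCF clone 11 against MCF-10F.

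In many enzymes both trMCF clone 11 arrays stood outside all 6 other arrays. Both were above the others in 10 enzymes and below them in 13, which is 46.9% of the 49, against 25.4% of all genes and 35.4% of those with a mean log2 signal of 6 or more. The 10 were KDM4B, KDM5B, KDM6B, PHF21A, EZH1, SETD2, SMYD3, OGA, HDAC5 and DNMT3A. The 13 were KDM2B, KDM4A, PHF8, EED, SETD7, SUV39H1, SUV39H2, EHMT1, PRMT5, PRMT6, HDAC4, EP300 and DNMT1. The median difference of the 49 from MCF-10F was 0.06, against 0.06 over all genes, with 26 higher and 23 lower.

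Among the 11 lysine demethylases and their partners, 1 rose and 1 fell in trMCF clone 11 against MCF-10F, and 1 rose and 3 fell at 10 μM ATRA, against the 4.53% and 7.83% of all genes that passed in either direction. PHF21A, on chromosome 11, binds unmethylated H3K4 within the LSD1 complex. Its log2 signals were 10.54 and 9.96 in trMCF clone 11, 8.37 and 8.57 at 1 μM, 8.43 and 8.83 at 10 μM and 8.37 and 8.78 in MCF-10F. Both trMCF clone 11 arrays were high, and the other 6 overlapped each other. The log2 difference from MCF-10F was 1.68 ± 0.25 (SE, n = 2 arrays a group), with an adjusted p of 0.0333. All errors here are limma's moderated SE, which pools the spread of all arrays in a fit. Against trMCF clone 11 the difference was -1.78 ± 0.25 at 1 μM (adjusted p 0.0429) and -1.62 ± 0.25 at 10 μM (adjusted p 0.017). When trMCF clone 11 replicate 1 was left out the difference from MCF-10F was 1.39 (adjusted p 0.0549) and that at 1 μM -1.50 (adjusted p 0.0601). All 4 PHF21A probe sets had the same direction, from 0.35 to 1.68 in trMCF clone 11 against MCF-10F. Only the brightest passed, there and at both doses against trMCF clone 11.

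KDM5B, on chromosome 1, removes methyl groups from H3K4. On the log2 scale it had 10.43 and 10.46 in trMCF clone 11, 9.30 and 9.11 at 1 μM, 9.25 and 9.24 at 10 μM and 9.11 and 9.81 in MCF-10F. Again both trMCF clone 11 arrays were above the rest, while the MCF-10F arrays were apart from each other. It fell by 1.20 at 10 μM (SE 0.23, adjusted p 0.0289), and its difference was -1.24 at 1 μM (adjusted p 0.076) and 0.98 from MCF-10F (adjusted p 0.0973). Of its 3 bright probe sets, 201548_s_at passed in all 3 comparisons, with 1.14 in trMCF clone 11 against MCF-10F (adjusted p 0.0284), -1.08 at 1 μM (adjusted p 0.0445) and -1.12 at 10 μM (adjusted p 0.00965), the second of which became -0.96 (adjusted p 0.0642) with trMCF clone 11 replicate 1 left out. The dimmer 235285_at had the opposite sign, with -0.65 and adjusted p 0.166 in trMCF clone 11 against MCF-10F. Without trMCF clone 11 replicate 1 the brightest probe set had -1.22 at 10 μM (adjusted p 0.0566).

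KDM4B, on chromosome 19, acts on H3K9. Signals on the log2 scale were 10.76 and 10.40 in trMCF clone 11, 9.58 and 9.72 at 1 μM, 9.59 and 9.69 at 10 μM and 9.66 and 10.12 in MCF-10F. Arrays of trMCF clone 11 were the highest, and MCF-10F overlapped the treated cells. It fell by 0.94 at 10 μM (SE 0.20, adjusted p 0.0415), and all 8 of its probe sets were lower there, 2 of them past the threshold. When trMCF clone 11 replicate 1 was left out the difference was -0.76 (adjusted p 0.0965).

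KDM2B, on chromosome 12, also brings a polycomb complex to CpG islands, and was low where the others were high. The arrays gave log2 signals of 8.15 and 8.51 in trMCF clone 11, 9.08 and 9.10 at 1 μM, 9.08 and 9.07 at 10 μM and 9.34 and 9.20 in MCF-10F. No group overlapped trMCF clone 11. Against MCF-10F it fell by 0.94 (SE 0.17, adjusted p 0.0498, just inside the threshold), and at 10 μM it rose by 0.75 (SE 0.16, adjusted p 0.0395). At 1 μM the difference was 0.76 (adjusted p 0.096). Without trMCF clone 11 replicate 1 the adjusted p was 0.077 against MCF-10F and 0.0717 at 10 μM. The other 7 of the class, KDM1A, KDM2A, KDM4A, KDM4C, KDM5A, KDM6B and PHF8, passed in no comparison at their brightest probe set, and their differences from MCF-10F in trMCF clone 11 lay between PHF8 at -0.80 and KDM6B at 0.60. A dimmer KDM4C probe set, 1556493_a_at, was past the threshold at 10 μM, with 1.26 (adjusted p 0.0356).

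**Figure D2:**
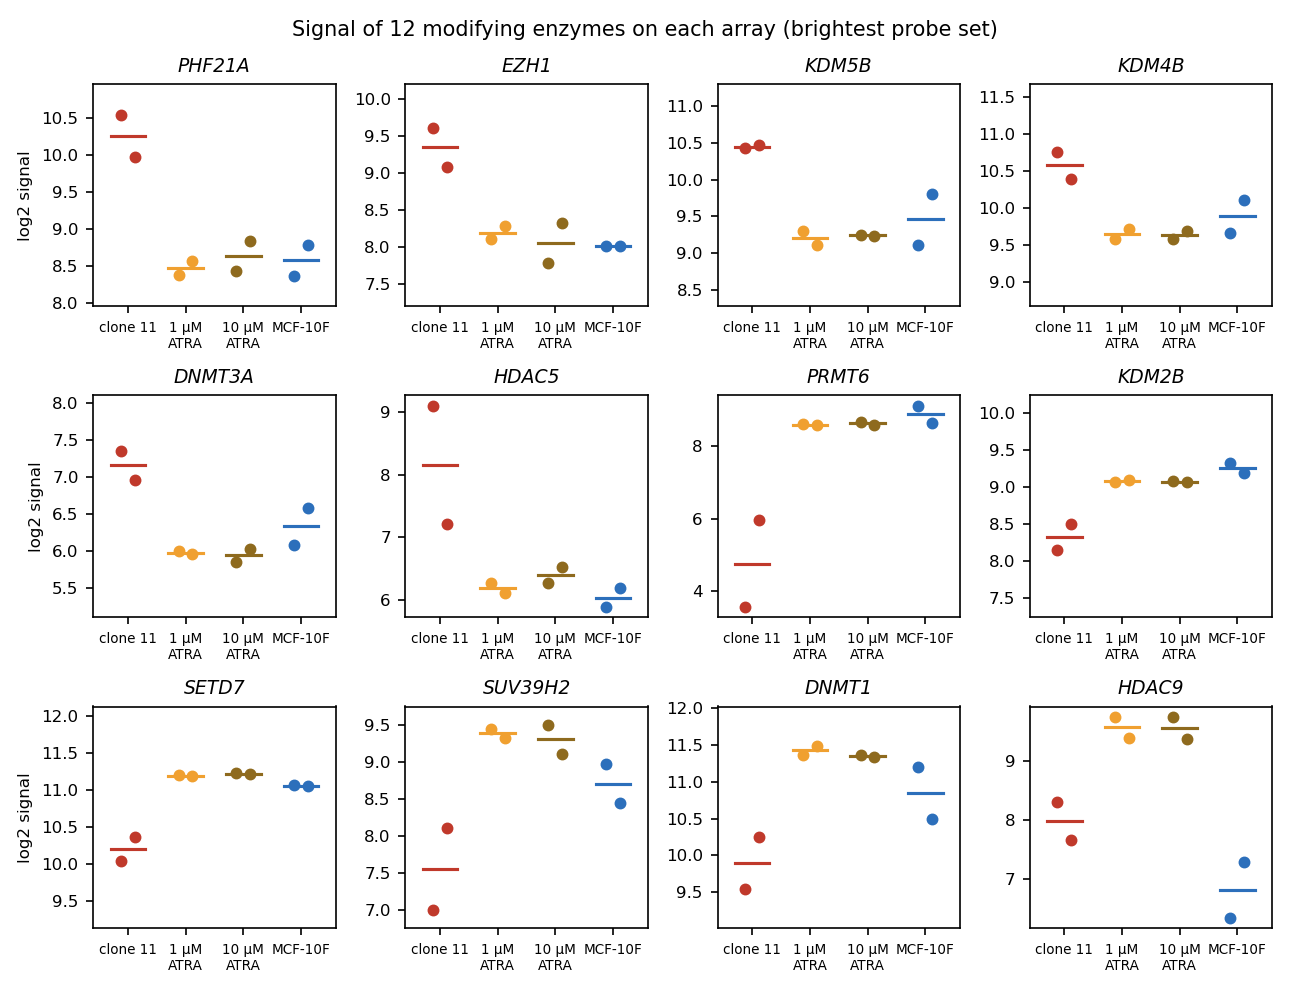
Log2 signal (vertical axis) on each of the 8 arrays for 12 enzymes, by group, with a bar at each group mean. Shown are the 11 enzymes past the threshold at 10 μM against trMCF clone 11, and HDAC5. Those 11 were picked for differing from trMCF clone 11. Both trMCF clone 11 arrays stand outside the other 6 in all but HDAC9, against 46.9% of the 49 enzymes and 25.4% of all genes. In HDAC9 they lie between MCF-10F and the ATRA-treated arrays, which are at 9.38 to 9.75.

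Polycomb repressive complex 2 methylates H3K27, and its 4 measured subunits did not move together. EZH1, on chromosome 17, is the catalytic subunit that prevails in cells that divide little. Log2 signals were 9.61 and 9.08 in trMCF clone 11, 8.10 and 8.28 at 1 μM, 7.78 and 8.32 at 10 μM and 8.01 and 8.01 in MCF-10F. Only trMCF clone 11 stood apart. EZH1 rose in trMCF clone 11 against MCF-10F by 1.34 (SE 0.21, adjusted p 0.0366) and fell at 10 μM by 1.30 (SE 0.24, adjusted p 0.0268), with -1.16 at 1 μM (adjusted p 0.0624). All 5 EZH1 probe sets were higher in trMCF clone 11 than in MCF-10F, 2 of them past the threshold. When trMCF clone 11 replicate 1 was left out the fall at 10 μM was -1.03 (adjusted p 0.0555). EZH2, the catalytic subunit of dividing cells, had -0.07 against MCF-10F and 0.66 and 0.69 at 1 and 10 μM, none past the threshold. With trMCF clone 11 replicate 1 left out EZH2 had 0.23 and 0.25 at the doses, and with replicate 2 left out 1.10 (adjusted p 0.0354) and 1.12 (adjusted p 0.0149). EED, which binds methylated H3K27, had -0.97 against MCF-10F and 1.03 and 0.99 at the doses, with adjusted p of 0.07 at 10 μM. Without replicate 1 of trMCF clone 11 these were -0.56, 0.62 and 0.57, none past the threshold, and without replicate 2 they were -1.39, 1.45 and 1.41, all past it. SUZ12, the scaffold subunit, had -0.47, 0.62 and 0.66, none past the threshold. The values of SUZ12 were 0.03, 0.11 and 0.15 without replicate 1 of trMCF clone 11, and -0.98, 1.13 and 1.16, all past the threshold, without replicate 2. A dimmer SUZ12 probe set, 1566191_at, had the opposite sign at 10 μM, with -1.07 (adjusted p 0.0294).

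Promoter sequence was set beside these values for 47 of the 49 enzymes, from RefSeq windows of 250 bases before and 50 after a start on GRCh38. E2F factors drive genes of the S phase, and 4 words of their motif were searched on both strands, TTTCGCGC, TTTGGCGC, TTTCCCGC and TTTGCCGC. They were found in DNMT1, EZH1, EZH2 and SUZ12, which is 4.94% of the 81 windows of these enzymes, against 3.31% of all 35116 windows. EZH1 and DNMT1 are printed because both hold such a word and their RNA differed in opposite directions, EZH1 from chr17:42744991-42745290 and DNMT1 from chr19:10194904-10195203, both on the minus strand. HDAC9, from chr7:18495499-18495798 on the plus strand, is printed as the enzyme that rose against MCF-10F after ATRA, and it is 1 of 5 windows of that gene. It holds AGGTCA, the half-site of retinoid receptors, searched on both strands and found in 7.41% of the enzymes' windows, against 13.8% of all windows. Windows of DNMT3A, which fell at 10 μM, and of HDAC4 and PRMT1, which did not pass, hold it too. Capitals mark the match, which in all 3 lies on the opposite strand and so reads as the reverse complement of the searched letters.
EZH1: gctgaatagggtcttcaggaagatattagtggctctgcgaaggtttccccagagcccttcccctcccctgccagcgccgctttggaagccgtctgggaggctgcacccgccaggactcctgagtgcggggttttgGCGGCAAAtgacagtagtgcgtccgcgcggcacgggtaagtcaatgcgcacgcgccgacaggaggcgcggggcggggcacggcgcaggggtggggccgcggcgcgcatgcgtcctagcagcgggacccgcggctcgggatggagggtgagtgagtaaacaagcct
DNMT1: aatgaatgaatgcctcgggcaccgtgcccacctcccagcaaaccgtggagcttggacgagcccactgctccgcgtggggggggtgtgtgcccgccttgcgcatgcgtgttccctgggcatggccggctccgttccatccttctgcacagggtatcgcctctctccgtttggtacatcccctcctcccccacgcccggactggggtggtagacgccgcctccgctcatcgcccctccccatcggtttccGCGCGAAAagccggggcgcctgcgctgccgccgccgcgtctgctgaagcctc
HDAC9: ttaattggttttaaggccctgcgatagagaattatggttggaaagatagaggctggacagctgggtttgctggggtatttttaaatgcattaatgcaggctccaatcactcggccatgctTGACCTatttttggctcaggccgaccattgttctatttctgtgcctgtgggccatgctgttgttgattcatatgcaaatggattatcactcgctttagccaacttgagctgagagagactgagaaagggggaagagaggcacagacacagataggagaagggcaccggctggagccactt
The E2F word begins 115 bases before the start in EZH1 and 2 bases before it in DNMT1, and the half-site 130 bases before it in HDAC9. The EZH1 and DNMT1 windows hold 30 CpG dinucleotides each and the HDAC9 window 5, against a median of 26 in the enzymes' windows and 14 in all windows. A match is a description of these letters and shows no binding.

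Of the 12 other lysine methyltransferases, 0 passed in trMCF clone 11 against MCF-10F and 2 rose at 10 μM, against 3.94% of all genes. SETD7, on chromosome 4, monomethylates H3K4 and several other proteins. Array by array, log2 signals were 10.04 and 10.37 in trMCF clone 11, 11.20 and 11.19 at 1 μM, 11.23 and 11.22 at 10 μM and 11.06 and 11.06 in MCF-10F. Both trMCF clone 11 arrays were low, and the treated arrays lay just above MCF-10F without overlap. SETD7 rose by 1.02 at 10 μM (SE 0.15, adjusted p 0.014), and both its probe sets were higher there. The difference was 0.99 at 1 μM (adjusted p 0.0532) and -0.86 in trMCF clone 11 against MCF-10F (adjusted p 0.0531), just outside the threshold.

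SUV39H2, on chromosome 10, trimethylates H3K9. Its log2 signals were 7.0 and 8.10 in trMCF clone 11, 9.45 and 9.33 at 1 μM, 9.50 and 9.11 at 10 μM and 8.97 and 8.44 in MCF-10F. The trMCF clone 11 arrays were the lowest and were over 2-fold apart. It rose by 1.75 at 10 μM (SE 0.36, adjusted p 0.0372), as did its other probe set, and had 1.84 at 1 μM (adjusted p 0.0797) and -1.16 against MCF-10F (adjusted p 0.169). Without trMCF clone 11 replicate 1 the rise was 1.20, with an adjusted p of 0.05003.

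The study names 5 of the enzymes as chromatin-modifying from these same arrays, KDM5B, PHF21A, PRMT2, OGA and NSD1. Their choice is no independent evidence of a change. NSD1, on chromosome 5, dimethylates H3K36. Its brightest probe set had log2 signals of 6.78 and 6.51 in trMCF clone 11, 7.23 and 7.24 at 1 μM, 7.14 and 7.17 at 10 μM and 6.92 and 6.59 in MCF-10F. The trMCF clone 11 and MCF-10F arrays overlapped, and the treated arrays were above both. The difference was -0.11 from MCF-10F (adjusted p 0.809) and 0.59 at 1 μM (adjusted p 0.167). Of 4 NSD1 probe sets only the dimmest, 235760_at, passed, with -1.54 in trMCF clone 11 against MCF-10F (adjusted p 0.0322), 1.78 at 1 μM (adjusted p 0.0351) and 1.32 at 10 μM (adjusted p 0.0475), and it passed in none of these with trMCF clone 11 replicate 1 left out (-1.31, adjusted p 0.056, against MCF-10F). The remaining 9 of the class, SETD2, SUV39H1, EHMT1, EHMT2, SETDB1, SETDB2, SMYD2, SMYD3 and DOT1L, passed in no comparison. Their differences from MCF-10F ran between SUV39H1 at -0.80 and SMYD3 at 0.75, and a dimmer SETDB1 probe set, 214197_s_at, was past the threshold at 1.09 (adjusted p 0.0422).

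Among the 6 arginine methyltransferases PRMT6, on chromosome 1, had the largest difference of all 49 enzymes. It places asymmetric dimethylarginine on histone H3. On the log2 scale it had 3.56 and 5.97 in trMCF clone 11, 8.62 and 8.58 at 1 μM, 8.68 and 8.59 at 10 μM and 9.13 and 8.63 in MCF-10F. Both trMCF clone 11 arrays were far below the rest, and replicate 1 had a linear signal of 11.8, under 16, so the size of the change is uncertain. PRMT6 fell by 4.11 in trMCF clone 11 against MCF-10F (SE 0.73, 17.3-fold, adjusted p 0.0454) and rose by 3.87 at 10 μM (SE 0.66, 14.6-fold, adjusted p 0.022). At 1 μM the difference was 3.83 (adjusted p 0.0672). Against MCF-10F it had -2.91 when trMCF clone 11 replicate 1 was left out and -5.32 when replicate 2 was. With 1 array left in that group the gap between its arrays was out of the spread. The SE was then 0.24 in both fits. PRMT6 had 1 probe set, so no second one could be compared.

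PRMT2, on chromosome 21, is a methyltransferase and nuclear receptor coactivator. Its brightest probe set had log2 signals of 9.38 and 9.15 in trMCF clone 11, 8.78 and 8.97 at 1 μM, 8.48 and 9.05 at 10 μM and 9.29 and 8.63 in MCF-10F. The trMCF clone 11 and MCF-10F arrays overlapped, and the difference was 0.30 (adjusted p 0.574). Of 7 PRMT2 probe sets 1 passed, 228722_at, with log2 signals of 8.63 and 8.67 in trMCF clone 11, 6.82 and 6.83 at 1 μM, 6.64 and 6.92 at 10 μM and 6.79 and 7.38 in MCF-10F. There the trMCF clone 11 arrays stood apart, with 1.56 against MCF-10F (adjusted p 0.03), -1.82 at 1 μM (adjusted p 0.0309) and -1.87 at 10 μM (adjusted p 0.00734). With trMCF clone 11 replicate 1 left out the first 2 were 1.58 (adjusted p 0.0578) and -1.84 (adjusted p 0.0567). The 6 others lay between -0.15 and 0.36 against MCF-10F. PRMT1, PRMT3, PRMT5 and CARM1 passed in no comparison, between PRMT5 at -0.96 and CARM1 at 0.40.

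For each enzyme of O-GlcNAc cycling, probe sets shared a direction in trMCF clone 11 against MCF-10F but differed in which passed the threshold. OGA, on chromosome 10, removes the sugar. Its brightest probe set, 200899_s_at, had log2 signals of 10.59 and 11.22 in trMCF clone 11, 10.43 and 10.44 at 1 μM, 10.39 and 10.53 at 10 μM and 10.35 and 10.42 in MCF-10F. Arrays of trMCF clone 11 were the highest, but the difference from MCF-10F, 0.52, did not pass (adjusted p 0.287). The next brightest, 223494_at, had 11.19 and 11.06 in trMCF clone 11, 9.50 and 9.53 at 1 μM, 9.57 and 9.72 at 10 μM and 9.39 and 9.60 in MCF-10F. Here the trMCF clone 11 arrays were far above all others and close to each other. It rose by 1.63 in trMCF clone 11 against MCF-10F (SE 0.15, adjusted p 0.0132) and fell by 1.61 at 1 μM (SE 0.15, adjusted p 0.0201) and by 1.48 at 10 μM (SE 0.14, adjusted p 0.00459). Without trMCF clone 11 replicate 1 these differences were 1.56, -1.54 and -1.41, and without replicate 2 they were 1.69, -1.68 and -1.545. All 5 OGA probe sets were higher in trMCF clone 11 than in MCF-10F, 3 past the threshold, and lower at both doses, 2 past the threshold at 1 μM and 4 at 10 μM.

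OGT, on the X chromosome, attaches the sugar and was named after its values were seen. Its brightest probe set had log2 signals of 10.09 and 10.68 in trMCF clone 11, 10.55 and 10.61 at 1 μM, 10.41 and 10.64 at 10 μM and 10.82 and 11.23 in MCF-10F. MCF-10F was above all others, and the treated arrays lay within the range of trMCF clone 11. The difference from MCF-10F was -0.64 (adjusted p 0.232), and it was -0.35 without trMCF clone 11 replicate 1 and -0.94 without replicate 2 (adjusted p 0.0475). All 6 OGT probe sets were lower in trMCF clone 11, and 2 passed, 212307_s_at with -1.22 (adjusted p 0.0235) and 207563_s_at with -0.89 (adjusted p 0.037). None of the 6 passed after ATRA against trMCF clone 11, where 212307_s_at had 0.59 at 1 μM (adjusted p 0.118) and 0.49 at 10 μM (adjusted p 0.1).

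**Figure D3:**
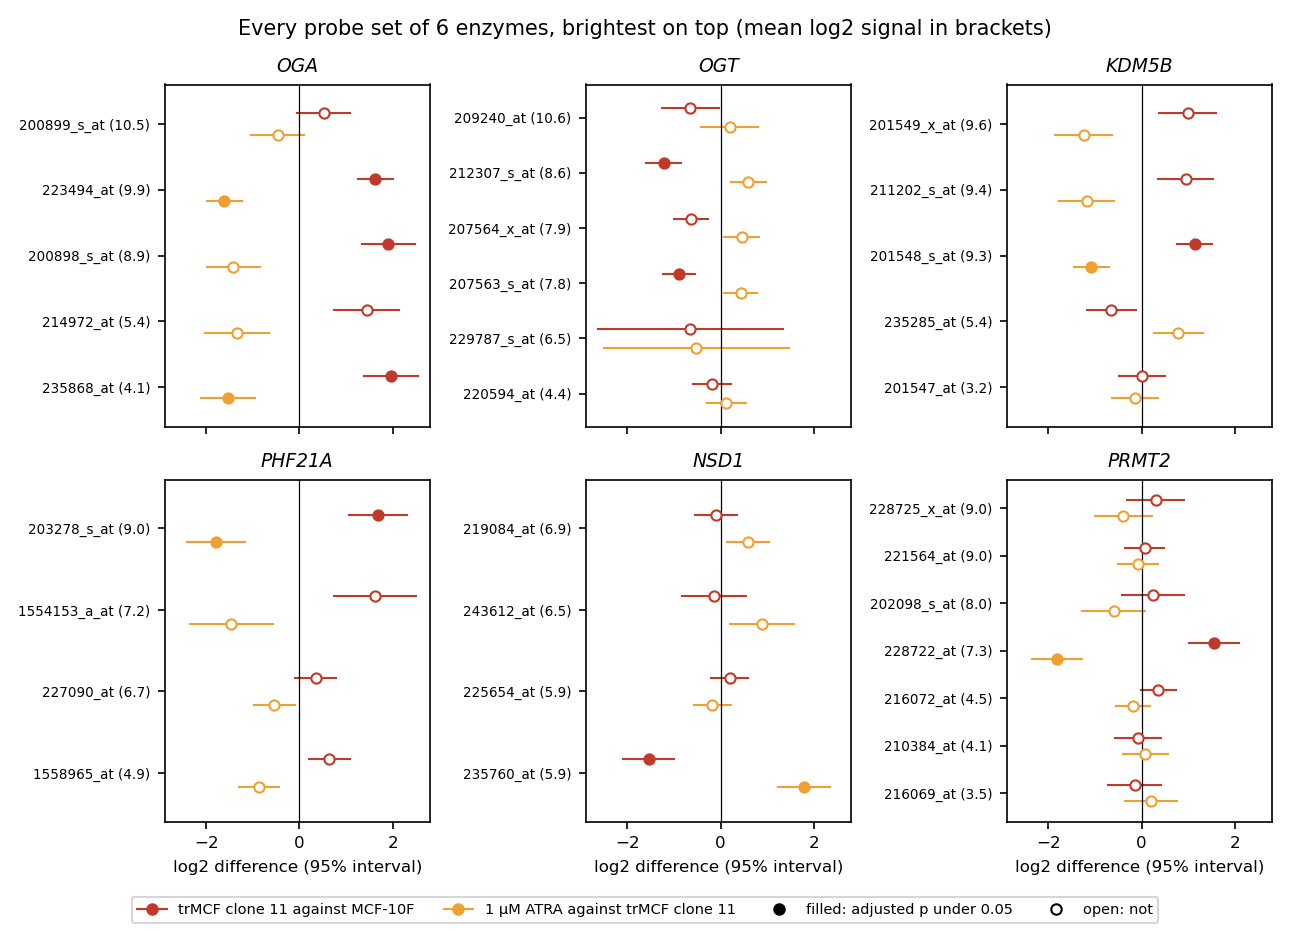
Log2 difference with its 95% interval (horizontal axis) at each probe set of 6 enzymes, brightest on top, in trMCF clone 11 against MCF-10F and in 1 μM ATRA against trMCF clone 11; filled points passed an adjusted p of 0.05. All probe sets of OGA and PHF21A share a direction, and PHF21A, PRMT2 and NSD1 pass at 1 probe set each.

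Of the 6 deacetylases, HDAC9 alone passed in a comparison. It was highest after ATRA, with MCF-10F and not trMCF clone 11 at the bottom. SETD7, SUV39H2 and DNMT1 were highest after ATRA too, but with trMCF clone 11 at the bottom. HDAC9, on chromosome 7, is a class IIa deacetylase that works as a transcriptional corepressor. Signals on the log2 scale were 8.31 and 7.65 in trMCF clone 11, 9.75 and 9.40 at 1 μM, 9.74 and 9.38 at 10 μM and 6.32 and 7.27 in MCF-10F. The 3 levels did not overlap, with treated cells on top and MCF-10F at the bottom. HDAC9 rose at 10 μM against trMCF clone 11 by 1.58 (SE 0.35, adjusted p 0.0471) and against MCF-10F by 2.76 (SE 0.35, 6.78-fold, adjusted p 0.0149). At 1 μM the differences were 1.60 (adjusted p 0.101) and 2.78 (adjusted p 0.0622), and in trMCF clone 11 against MCF-10F 1.18 (adjusted p 0.158). When trMCF clone 11 replicate 2 was left out the rise at 10 μM against trMCF clone 11 was 1.25 (adjusted p 0.0761). Its 4 other probe sets had mean log2 signals under 6, and 1 of them rose at 10 μM as well.

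HDAC5, a class IIa relative that was named after its values were seen, had log2 signals of 9.11 and 7.22 in trMCF clone 11, 6.27 and 6.11 at 1 μM, 6.27 and 6.52 at 10 μM and 5.88 and 6.19 in MCF-10F. Both trMCF clone 11 arrays were the highest and over 2-fold apart. Its difference of 2.13 from MCF-10F was the largest positive one of the 49 and did not pass (SE 0.57, adjusted p 0.113), nor did those of -1.97 at 1 μM and -1.76 at 10 μM. Without trMCF clone 11 replicate 2 it passed, with 3.07 and an adjusted p of 0.00465, and without replicate 1 it had 1.18 (adjusted p 0.056). HDAC1, HDAC2, HDAC4 and SIRT1 passed in no comparison, and against MCF-10F HDAC4 had -0.88 and SIRT1 0.62. The value of HDAC4 was -0.39 without trMCF clone 11 replicate 1 and -1.36 without replicate 2 (adjusted p 0.0126). A dimmer HDAC4 probe set, 1554322_a_at, had the opposite sign, 1.14 (adjusted p 0.0407). The study lists HDAC4 as upregulated in trMCF clone 11 against MCF-10F, under xenobiotic metabolism, without naming a probe set.

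None of the 3 acetyltransferases passed in any comparison. KAT2B, on chromosome 3, acetylates histone H3 and had the smallest p of them in trMCF clone 11 against MCF-10F. The arrays gave log2 signals of 7.81 and 8.13 in trMCF clone 11, 7.96 and 8.19 at 1 μM, 7.84 and 8.07 at 10 μM and 8.53 and 8.86 in MCF-10F. MCF-10F was above all 6 others, and the treated arrays overlapped trMCF clone 11. The difference from MCF-10F was -0.73 in trMCF clone 11 (SE 0.20, adjusted p 0.118), -0.62 at 1 μM (adjusted p 0.35) and -0.74 at 10 μM (adjusted p 0.13). EP300 and CREBBP, the paired coactivators, had -0.63 and -0.02 in trMCF clone 11 against MCF-10F, and EP300 had -0.31 without trMCF clone 11 replicate 1 and -0.96 without replicate 2 (adjusted p 0.02).

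Of the DNA methyltransferases, DNMT1 and DNMT3A moved in opposite directions. DNMT1, on chromosome 19, copies methylation onto new DNA strands. Log2 signals were 9.55 and 10.24 in trMCF clone 11, 11.36 and 11.48 at 1 μM, 11.36 and 11.33 at 10 μM and 11.19 and 10.49 in MCF-10F. The trMCF clone 11 arrays were the lowest and the treated arrays above both MCF-10F arrays. DNMT1 rose by 1.45 at 10 μM (SE 0.29, 2.73-fold, adjusted p 0.0338), with 1.52 at 1 μM (adjusted p 0.0802) and -0.95 in trMCF clone 11 against MCF-10F (adjusted p 0.176). When trMCF clone 11 replicate 1 was left out the 10 μM difference was 1.10 (adjusted p 0.0706).

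DNMT3A, on chromosome 2, methylates unmarked sites. Array by array, log2 signals were 7.35 and 6.96 in trMCF clone 11, 5.99 and 5.96 at 1 μM, 5.85 and 6.03 at 10 μM and 6.08 and 6.57 in MCF-10F. Arrays of trMCF clone 11 were the highest and the treated arrays the lowest, all without overlap. DNMT3A fell by 1.21 at 10 μM (SE 0.21, adjusted p 0.0225), with -1.18 at 1 μM (adjusted p 0.0684) and 0.83 against MCF-10F (adjusted p 0.115). Of its 2 other probe sets, which were dimmer, 1 was lower at 10 μM and 1 higher, neither past the threshold. DNMT3B, TET2 and TET3 passed in no comparison. DNMT3B had 0.01 in trMCF clone 11 against MCF-10F, 0.70 at 1 μM and 0.54 at 10 μM. At the doses it had 0.38 and 0.22 without trMCF clone 11 replicate 1, and 1.01 and 0.85 without replicate 2. TET2, which oxidizes methylcytosine, had -1.15 in trMCF clone 11 against MCF-10F (adjusted p 0.163). It was -0.58 (adjusted p 0.204) without trMCF clone 11 replicate 1 and -1.72 (adjusted p 0.00897) without replicate 2.

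UHRF1, the protein that brings DNMT1 to newly copied DNA, was measured with a wider list of 94 chromatin genes, 88 of which had a probe set of their own. Its log2 signals were 7.84 and 8.74 in trMCF clone 11, 11.39 and 11.38 at 1 μM, 11.27 and 11.31 at 10 μM and 11.51 and 10.34 in MCF-10F. Both trMCF clone 11 arrays were far below the rest. UHRF1 fell by 2.64 in trMCF clone 11 against MCF-10F (SE 0.45, adjusted p 0.042) and rose by 3.09 at 1 μM (SE 0.45, adjusted p 0.0446) and by 3.0 at 10 μM (SE 0.41, adjusted p 0.0118). RIOX1, an oxygenase with reported histone demethylase activity, fell by 1.85 against MCF-10F (SE 0.31, adjusted p 0.0407) and rose by 1.48 at 10 μM (SE 0.29, adjusted p 0.0307). No other gene of the 88 passed in trMCF clone 11 against MCF-10F or at 1 μM, and at 10 μM 6 rose and 2, KDM7A and KDM3A, fell, the last 2 named after their values were seen. These counts stand beside 4.53% of all genes that passed against MCF-10F, 1.9% at 1 μM and 7.83% at 10 μM. The median difference of the 88 was 0.04 in trMCF clone 11 against MCF-10F, 0.06 at 1 μM and 0.08 at 10 μM.

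DNA replication genes had their lowest summed signal in trMCF clone 11, where several of the enzymes were low too. Of 20 S phase genes 19 were measured, and their summed signal was 10965 to 20687 in trMCF clone 11, 38043 to 39453 at 1 μM, 38455 to 38795 at 10 μM and 26456 to 38894 in MCF-10F. The median difference of the 19 was -1.32 in trMCF clone 11 against MCF-10F, 1.74 at 1 μM and 1.66 at 10 μM, against 0.06, -0.06 and -0.01 over all genes. By array their median log2 signal was 8.53 and 9.36 in trMCF clone 11, replicate 1 first, and 9.99 and 9.58 in MCF-10F. Replicate 2 of trMCF clone 11 thus lay much nearer to MCF-10F than replicate 1. Past the threshold, 1 of the 19 rose and 1 fell in trMCF clone 11 against MCF-10F, 0 passed at 1 μM and 10 rose at 10 μM, where 3.94% of all genes rose. Their summed signal in trMCF clone 11 did not overlap any other group. DNMT1 and UHRF1, known to be made mostly in dividing cells, and SUV39H2 were likewise lowest on the trMCF clone 11 arrays and had their highest means in treated cells, while PRMT6 was lowest in trMCF clone 11 and had its highest mean in MCF-10F. For 16 genes of G2 and M phase the median differences were 0.28, 0.02 and 0.17, and 0 of them passed in these 3 comparisons. In bulk RNA fewer cells in S phase and less RNA per cell cannot be told apart, and the part of the cell cycle in the differences of the enzymes was not tested.

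Few enzymes of ATRA-treated cells passed against MCF-10F, and few genes did. At 1 μM 0 of 49 passed against MCF-10F, against 0.612% of all genes, and 6 had an unadjusted p under 0.05, against 12.5% of all genes and 18.1% of those at 6 or more. At 10 μM 1 passed, HDAC9, against 2.56% of all genes (0.759% that rose), and 9 had an unadjusted p under 0.05, against 16.5% and 23.5%. With a fold of 2 and the unadjusted p HDAC9 alone passed at each dose, against 3.72% of all genes at 1 μM and 4.51% at 10 μM. The difference was under 2-fold in 48 of 49 enzymes (98%) at each dose, against 95.7% of all genes at 1 μM and 95.1% at 10 μM. Its whole 95% interval lay within 2-fold in 36 of 49 (73.5%), against 75.9% of all genes at 1 μM and 78.7% at 10 μM. In the other enzymes the interval reached past 2-fold. The fits at both doses also held the trMCF clone 11 arrays, so the gap between those arrays enters the spread behind these intervals and p-values. The lowest value was that of TET2, with -0.86 at 1 μM (adjusted p 0.529) and -0.91 at 10 μM (adjusted p 0.298). With either trMCF clone 11 array left out HDAC9 passed at 1 μM, and 3 passed at 10 μM, HDAC9, SIRT1 and TET2. With any 1 of the treated arrays left out 0 passed at 10 μM.

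The doses gave like levels throughout. Between 10 μM and 1 μM ATRA 0 of 49 enzymes passed, against 0% of all genes (limma), and 1 had an unadjusted p under 0.05, KDM6B at 0.26, against 6.67% of all genes. A fold of 2 with the unadjusted p gave 0 enzymes too, against 0.121% of all genes. Differences of the 49 ran from -0.23 (PRMT1) to 0.26, and all 49 intervals lay within 2-fold, against 98.9% of all genes. The lowest bound was -0.72, in PRMT1, and the highest 0.55, in PHF21A.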

How the data were processed

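Expression was profiled by Affymetrix U133 Plus 2.0 arrays in 8 samples, 2 for each of 4 groups. The authors deposited intensity values on a linear scale, 1 per probe set and array, already normalized between arrays. Both MAS 5.0 (global scaling) and, in GeneSpring, Iterative Plier 16 appear in the Methods, without saying by which of them these values were made. Detection calls were not used here.

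Intensities were taken as log2 and not scaled again. The table held 54675 probe sets, of which 62 were controls and were dropped. Of the 54613 tested, 41091 name 1 gene in the platform annotation, 1801 several and 11721 none, and no gene was named from the last 2 kinds. Older symbols were updated through RefSeq gene identifiers, and the study calls OGA by its older symbol MGEA5. Groups were compared in limma 3.58.1 (R 4.3.3, lmFit and eBayes) with Benjamini-Hochberg adjustment over all probe sets and a threshold of 0.05. The 6 arrays of trMCF clone 11, 1 μM ATRA and MCF-10F entered 1 fit, since these were the 3 groups that the study compared by limma, all 8 arrays the fit for 10 μM, and the 4 treated arrays the comparison of doses. Simulated data held few planted changes among 54613 probe sets, and 1 spread for all groups of a probe set. There the fit of trMCF clone 11 against MCF-10F recovered 11% of 73 log2 changes of 1 and 83.6% of 61 changes of 2. It recovered 100% of 66 changes of 4 and called 13 unchanged probe sets. Changes near 2-fold often went uncalled in the simulation. The arrays themselves differ in spread between groups and hold more differences, so their rate of recovery may differ.

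The enzymes, the wider list and the marker lists were chosen with earlier results of these data known. Values on every array are given for enzymes past the adjusted threshold in any of 6 comparisons. They are also given for the 5 the study names as chromatin-modifying. In a class with neither they are given for the enzyme with the smallest p in trMCF clone 11 against MCF-10F. OGT, HDAC5 and other enzymes named with single values were added after the values were seen. Of the wider list, genes past the threshold in trMCF clone 11 against MCF-10F or at 1 μM are named. Alternatives were all 8 or only 4 arrays, quantile normalization, dropping the dimmest 33%, a robust prior with a trend, a variance per group, the replicate number as a block, a floor of 16, probe sets without a shared-target suffix, the average of a gene's probe sets, the criteria of the study, and each array left out in turn. The number of arrays limits the precision. Figures were drawn with matplotlib 3.10.9 from tables read with pandas 2.3.3.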

Additional observations from a re-analysis of the deposited data

How the results depend on the processing

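Over 315 repeats of the 17 changes of enzymes that passed, 173 stayed past the threshold, 141 did not and 1 turned round: KDM5B at 10 μM was 0.36 at its brightest probe set without a shared-target suffix. The number of enzymes past the threshold in trMCF clone 11 against MCF-10F, 4, became 7 with all 8 arrays, 0 with only the 4 arrays compared, 2 with a variance per group, 0 with a floor of 16 and 7 by the study's criteria of a 2-fold change with unadjusted p, and 0 to 16 with 1 array left out. For 1 μM ATRA against trMCF clone 11 the count of 1 became 11 with all 8 arrays, 2 with quantile normalization, 3 with a variance per group, 0 with the floor, 2 with the mean over probe sets and 10 by the study's criteria, and 0 to 18 with 1 array left out. For 10 μM against trMCF clone 11 the 11 became 1 with only the 4 arrays, 7 with a variance per group and 1 with the floor, and 0 to 21 with 1 array left out. Against MCF-10F, the 0 at 1 μM became 1, HDAC9, with all 8 arrays, with only 4 arrays, with a trend and robust prior, with a variance per group, with the mean over probe sets and by the study's criteria, and 0 to 1 with 1 array left out. At 10 μM the 1 became 2 with a variance per group, 0 with the floor and 2 with the mean over probe sets, and 0 to 3 with 1 array left out. The count between doses was 0 under every alternative run. The floor raises 9517 probe sets to 1 value on every array, and the cause of the other changes was not tested. Leaving out 1 array leaves 1 array in its group. No share of all genes is given beside the counts of these alternatives, so they describe the fits and not the enzymes.

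With the replicate number as a block the counts were 0 in trMCF clone 11 against MCF-10F, 0 at 1 μM against trMCF clone 11, 7 at 10 μM against trMCF clone 11, 0 and 1 against MCF-10F, and 0 between doses. The numbers were not taken to pair the samples, since no source says that they do and the differences of replicate 1 from replicate 2 correlated between groups at -0.0562 to 0.351 across probe sets, over 0.1 in 3 of 6 pairs of groups.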
